A study of Homo sapiens with 28 samples.

Results

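Described here are 10 human genes that detect viral-type RNA or carry that signal to interferon, measured by RNA-seq in LNCaP cells, a prostate cancer line. They were chosen by name, with earlier results of these data known. They are *DDX58* (current symbol *RIGI*), *IFIH1*, *DHX58*, *TLR3*, *MAVS*, *TBK1*, *IRF3*, *IRF7*, *EIF2AK2* and *IFNL1*. All 10 were present among 26443 genes with a value in every library. The 28 libraries form 2 series. In the knockdown series, 8 groups of 2 libraries carried the HOXB13 hairpin (shHOXB13) or its control vector (shCtrl), each with shp300, with shCBP, with shp300/CBP, or alone. In the CCS1477 series, 4 groups of 3 libraries carried shHOXB13 or shCtrl and received 250 nM CCS1477, a p300/CBP bromodomain inhibitor, or DMSO, its vehicle, for 48 h. Each hairpin was 1 sequence from a lentiviral vector, and the sources name no control hairpin for the second vector, so whether the other groups carried that vector is not given. Replicates were biological duplicates or triplicates.

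Double-stranded or uncapped RNA in the cytoplasm is detected by RIG-I (*DDX58*) and MDA5 (*IFIH1*), and in endosomes by TLR3. RIG-I and MDA5 signal through MAVS, which activates the kinase TBK1, and TBK1 phosphorylates IRF3 and IRF7, which then turn on type I and type III interferon genes, a step at which IRF3 recruits the coactivators p300 and CBP. Secreted interferon acts back through JAK and STAT proteins and raises several of the sensors themselves, and in epithelial cells the type III interferons, including *IFNL1*, are a common product.

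FPKM values (reads scaled to gene length and to the mapped reads of the library) were compared in each series with limma on log2(FPKM + 0.1). A gene passed at a Benjamini-Hochberg adjusted p below 0.05 with at least a 1.5-fold difference. The knockdown fit tested 17678 genes and the CCS1477 fit 15907, with all 10 genes in each. Mapped reads per library numbered 7458934 to 16338528 in the first series and 8085754 to 14427238 in the second. The targeted *HOXB13* transcript was 11.2 and 11.4 FPKM with shHOXB13 alone, against 87.6 and 85.4 FPKM with shCtrl. *EP300*, which encodes p300, was 3.16 and 3.39 FPKM with shHOXB13+shp300, against 5.62 and 5.88 FPKM with shHOXB13. *EP300* was also lower with shHOXB13 than with shCtrl (0.528-fold, limma adjusted p = 0.00067), a call that median-of-ratios scaling of the libraries removed. The CBP gene, *CREBBP*, was 3.33 and 2.96 FPKM with shHOXB13+shCBP, against 5.15 and 4.72 FPKM with shHOXB13 (log2 -0.64, limma adjusted p = 0.064), so its fall missed the threshold there. With shHOXB13+shp300/CBP against shHOXB13 neither *EP300* (0.755-fold, limma adjusted p = 0.0729) nor *CREBBP* (0.829-fold, adjusted p = 0.227) passed, while *HOXB13* was lower (0.576-fold), as it was with shp300/CBP (0.569-fold) and with shCBP (0.546-fold) against shCtrl alone (limma adjusted p at most 0.00859). Across genes, replicate pairs correlated at r = 0.970 to 0.984 in log2 FPKM in the knockdown series except the shHOXB13+shp300/CBP pair (0.951), and at 0.976 to 0.982 in the CCS1477 series except those of shCtrl DMSO replicate 1 and shCtrl CCS1477 replicate 1 (0.946 to 0.948). All 10 luminal prostate markers were expressed (summed FPKM 1160 to 7050). *KLK3* weighs most on these sums, at 501 to 5670 FPKM over all libraries, against at most 655 FPKM for any other marker. The targeted *HOXB13* is also on this list. Of the 11 immune markers, *PTPRC* was at 0 in 27 of 28 libraries and *CLEC4C*, of the interferon-producing plasmacytoid dendritic cell, in all 28. *IL3RA*, also on that list, was above 0 in all 28 (0.0229 to 0.324 FPKM). *LYZ*, *CD14* and *NKG7* were at 0 in 7, 9 and 14 libraries and reached 0.911, 0.283 and 0.509 FPKM. The summed immune list was 21.2 and 21.6 FPKM with shHOXB13+shp300, against 9.7 and 13.2 FPKM with shHOXB13, most of it *CD68* (2.35 to 40.2 FPKM over all libraries). The summed fibroblast list was 8.01 and 8.56 FPKM with shHOXB13+shp300, against 4.51 and 5.46 FPKM with shHOXB13, most of it *COL1A1*, and it includes *LUM* (0 to 2.03 FPKM over all libraries). The shHOXB13+shp300/CBP pair differed more, with 14.4 and 41.9 FPKM for the immune list and 6.27 and 18.3 FPKM for the fibroblast list. The part of these markers in the results was not tested.

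Promoters of genes that interferon or the IRF proteins control often hold an interferon-stimulated response element. Its core, GAAA, any 2 bases and GAAA again, which reads TTTC, any 2 bases and TTTC on the other strand, was searched on both strands in the RefSeq promoter windows of GRCh38.p14, which run from 250 bases before to 50 bases after each start. It was found in 4 of the 7 genes with a window, *IFIH1*, *TLR3*, *EIF2AK2* and *IFNL1*, but not in *DDX58*, *MAVS* and *TBK1*, and in 3.57% of all 35116 windows. *DHX58*, *IRF3* and *IRF7* had no entry. The matches are shown because these 4 genes are followed below, with capitals for the matched bases. Each sequence runs in the direction of its gene and ends no later than RefSeq's start or, where a match crosses that start, the end of the match. A match is a description of the letters and does not show a bound site.
IFNL1, chr19:39296168-39296233, plus strand, 2 overlapping matches beginning 214 bases before the start: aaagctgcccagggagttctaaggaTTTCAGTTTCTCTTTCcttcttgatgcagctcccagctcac
IFNL3, chr19:39245392-39245451, minus strand, 1 match beginning 176 bases before the start: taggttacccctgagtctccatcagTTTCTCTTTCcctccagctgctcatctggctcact
IFIH1, chr2:162318803-162318868, minus strand, 2 overlapping matches beginning 159 bases before the start: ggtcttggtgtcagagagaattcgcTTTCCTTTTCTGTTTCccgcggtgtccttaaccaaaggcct
IFIH1, chr2:162318685-162318730, minus strand, 1 match beginning 21 bases before the start: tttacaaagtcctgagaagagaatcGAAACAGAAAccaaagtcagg
TLR3, chr4:186069127-186069161, plus strand, 1 match beginning 4 bases before the start: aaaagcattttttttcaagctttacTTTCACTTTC
EIF2AK2, chr2:37156977-37157011, minus strand, 1 match beginning 6 bases before the start: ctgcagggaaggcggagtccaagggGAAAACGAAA
The *IFNL2* window (chr19:39268195-39268254, plus strand) held the same 60 bases as that of *IFNL3*. These paralogs also share much of their transcript, so the read counts of both are uncertain. The window of *IFNB1*, a type I interferon gene, held no match.

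Adding shp300 to shHOXB13 cells raised 7 of the 10 genes, *IFNL1*, *DDX58*, *DHX58*, *IFIH1*, *IRF7*, *TLR3* and *EIF2AK2*, and lowered 0, where 3.15% of all tested genes rose and 3.09% fell. The median of the 10 log2 differences was 1.02, against 0 over all genes. As the 10 genes were chosen with earlier results of these data known, such counts are descriptions only. In these bulk samples, fewer cells of a type and less RNA per cell cannot be told apart. In shCtrl cells the same hairpin raised 0 and lowered 1, *IFIH1*, where 1.00% of all genes rose and 2.09% fell (limma, 4 of the 10 at an unadjusted p under 0.05). The double hairpin raised 6 of the 10 in shHOXB13 cells and 6 in shCtrl cells and lowered 0 in both, where 9.06% and 13.3% of all genes rose and fell in shHOXB13 cells and 7.60% and 7.89% in shCtrl cells. Luminal markers moved the other way, with summed levels of 1480 to 1960 FPKM for shHOXB13+shp300 and 1160 to 1250 FPKM for shHOXB13+shp300/CBP, against 4230 to 4360 FPKM for shHOXB13, and 4 and 7 of the 10 markers fell. In shCtrl cells with shp300/CBP 5 fell and 1 rose (1980 to 2180 FPKM, against 2400 to 2580 FPKM for shCtrl). With shCtrl+shp300 2 fell and 0 rose (1830 to 1880 FPKM). With shHOXB13 against shCtrl, neither with a second hairpin, 3 of these markers were higher and 5 lower. The share of mapped reads in genes was 58.7% to 65.5% with shHOXB13+shp300 and 52.7% to 61.6% with shHOXB13+shp300/CBP, against 66.3% to 68.8% with shHOXB13. The part of the markers and of this share in the counts was not tested. With shCBP alone, 0 of the 10 passed in shHOXB13 cells (limma, 6 at an unadjusted p under 0.05), where 0.385% of genes rose and 1.08% fell. In shCtrl cells shCBP raised only *IRF7* of the 10, where 3.39% rose and 6.67% fell. The calls lean on the spread shared by all 8 groups. In fits of the 2 compared groups alone, with 2 libraries each, 0 of the 10 passed for shp300 and 0 for shp300/CBP in shHOXB13 cells (limma adjusted p at least 0.060 for those 7 and 0.052 for those 6), although 8 and 6 were still at an unadjusted p under 0.05.

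**Figure D1:**
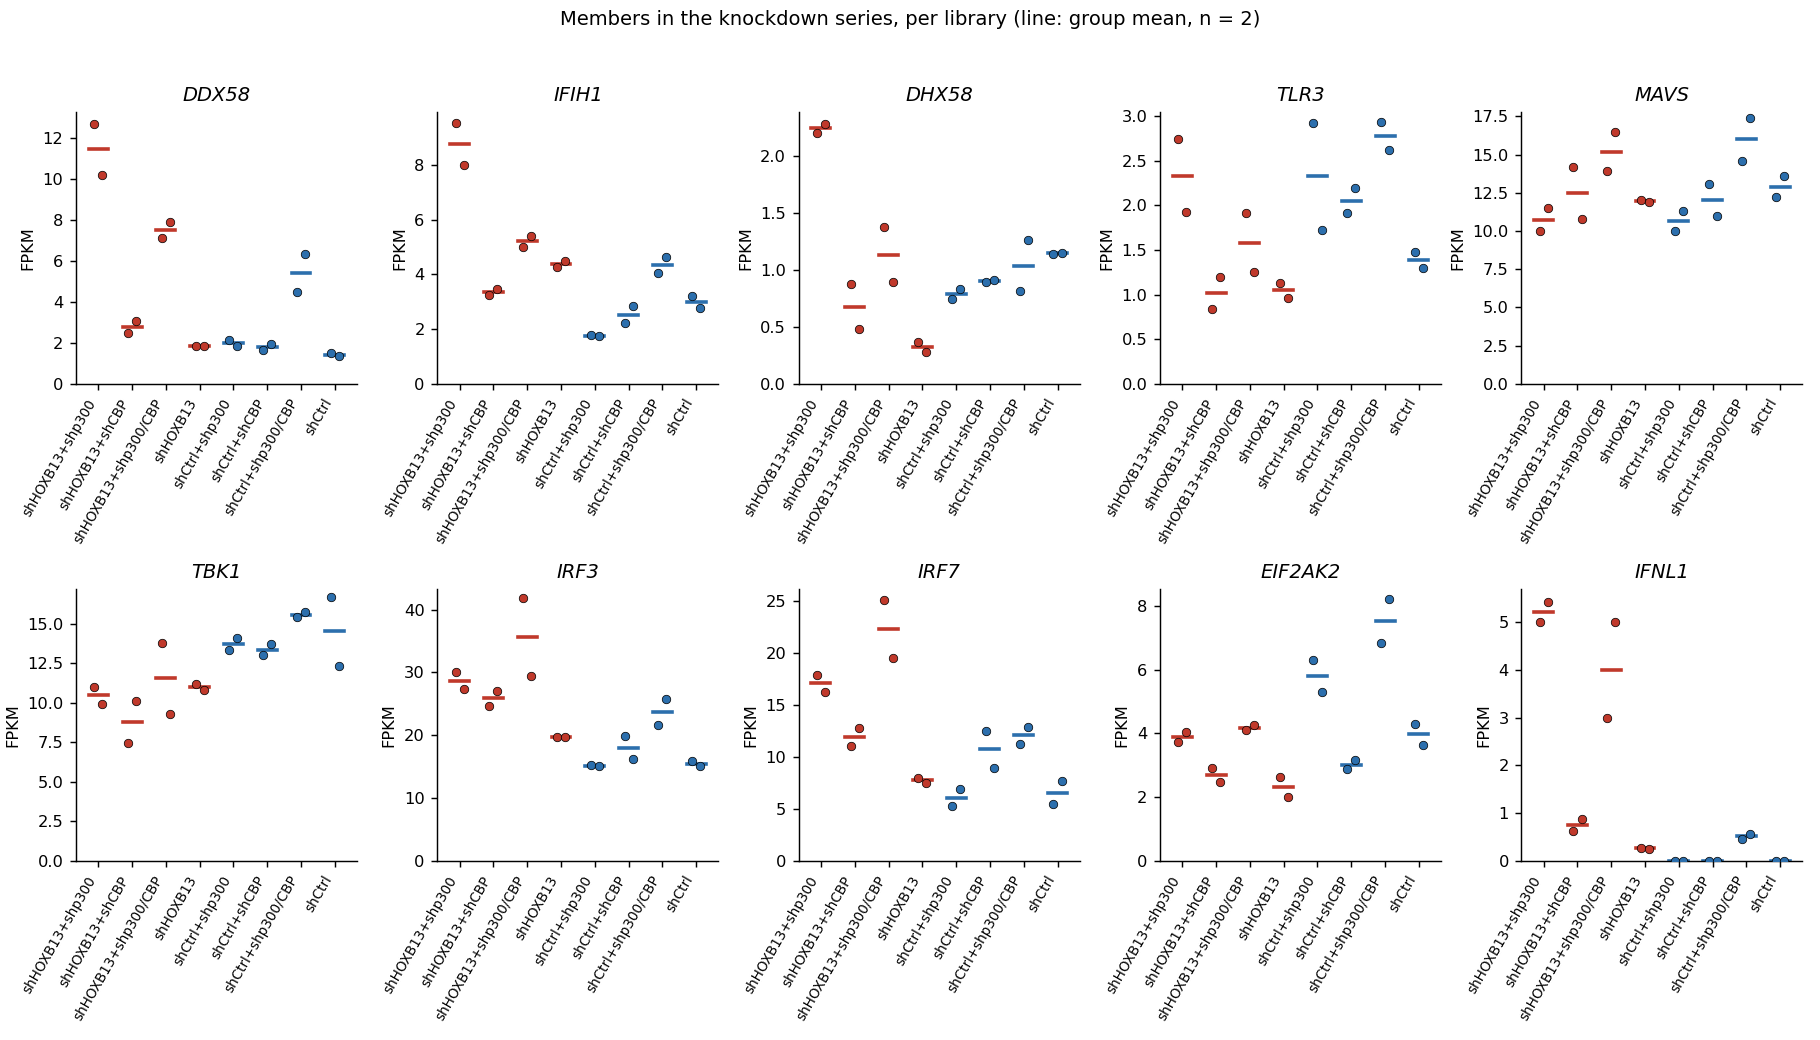
FPKM of the 10 genes (y axis, from 0, own scale per gene) in each library of the 8 knockdown groups (x axis), points for libraries and lines for group means (n = 2), red for shHOXB13 and blue for shCtrl cells. *DDX58* reached 10.2 and 12.7 FPKM with shHOXB13+shp300, above every other library, while *MAVS* stayed between 10.0 and 17.4 FPKM throughout.

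*IFNL1*, the type III interferon gene (chromosome 19, 39296407 to 39298673, plus strand, 5 exons), was the product measured at the end of this pathway. The deposited values returned whole reads, so its evidence can be given as reads. There were 35 and 42 *IFNL1* reads with shHOXB13+shp300, 30 and 35 with shHOXB13+shp300/CBP, and 4 and 6 with shHOXB13+shCBP, against 3 and 2 reads with shHOXB13 alone. In shCtrl cells there were 5 and 8 reads with shp300/CBP and 0 in all 6 libraries with shp300, with shCBP or alone. The level was thus highest where shHOXB13 met shp300, and the 4 libraries with shHOXB13 and a p300 hairpin lay above all others, of which the highest had 8 reads. Per mapped read, shHOXB13+shp300 stood 19.7 times above shHOXB13 (exact 95% counting interval 8.09 to 62.4) and shHOXB13+shp300/CBP 14.4 times above it (5.86 to 45.8).

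Against groups at 0, *IFNL1* was at least 31.2-fold higher in shHOXB13+shp300 than in shCtrl+shp300 cells (exact lower 95% counting limit 24.7) and at least 5.31-fold higher in shHOXB13+shCBP than in shCtrl+shCBP cells (3.57). It was at least 4.09-fold higher in shCtrl+shp300/CBP than in shCtrl cells (2.87). Each fold sets the pair of libraries at 0 to 3 reads in all and leaves out the counting error of the other pair, which the lower limit includes. With shp300/CBP in both, shHOXB13 cells were 7.31 times above shCtrl cells (3.99 to 14.4). All of these passed in limma (adjusted p at most 0.00018). Groups at 0 in both libraries have no spread, and they enter the shared spread behind the SE of 0.291. These p-values are thus partly set by values at 0. The fitted difference between shHOXB13 and shCtrl alone also passed (limma adjusted p = 0.00043), but it rests on 5 reads against 0 and was lost with a pseudocount of 1 (adjusted p = 0.111). These intervals cover counting error only.

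**Figure D2:**
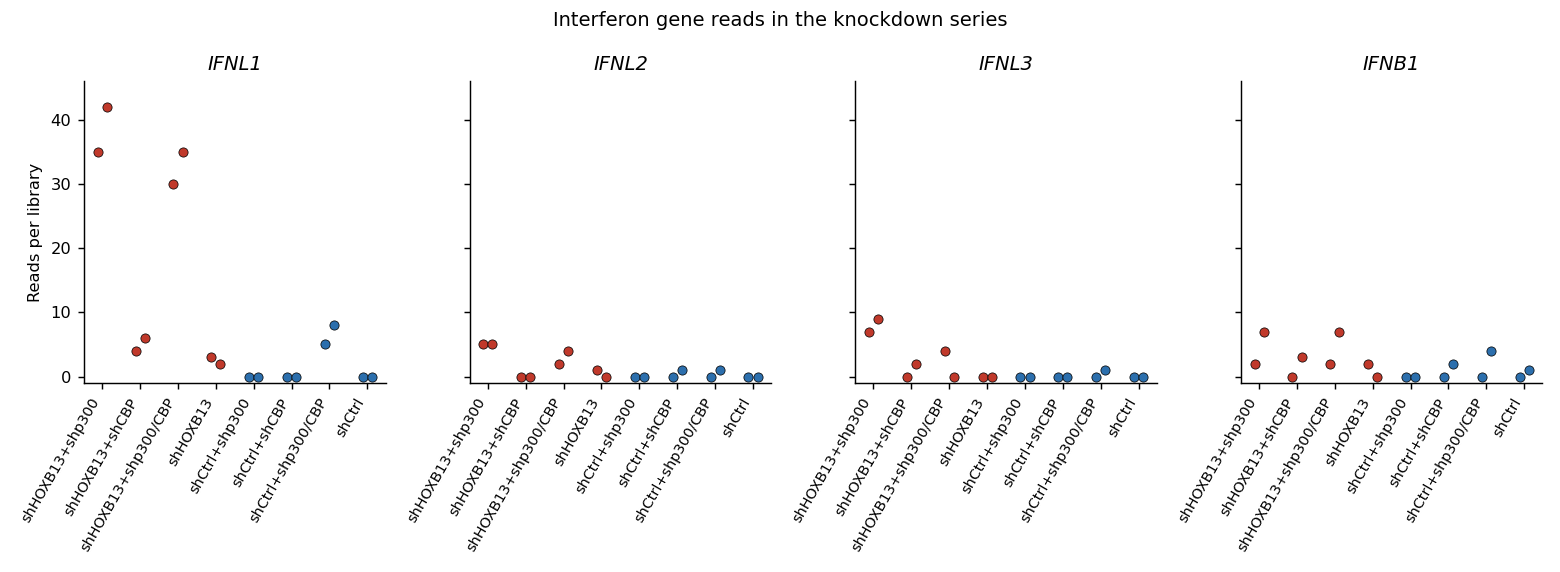
Reads per library (y axis) of *IFNL1*, *IFNL2*, *IFNL3* and *IFNB1* in the 8 knockdown groups (x axis), 1 point per library, red for shHOXB13 and blue for shCtrl cells. *IFNL1* held 30 to 42 reads in the 4 libraries with shHOXB13 and a p300 hairpin and at most 8 elsewhere.

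Among all 21 interferon genes examined, 13 had no read in any of the 28 libraries, which included most *IFNA* genes. *IFNL3* had 7 and 9 reads with shHOXB13+shp300, against 0 and 0 with shHOXB13 (at least 6.83-fold, 3 reads over the group, exact lower 95% limit 4.94). *IFNL2* had 5 and 5 reads with shHOXB13+shp300, against 1 and 0 with shHOXB13. Both passed (limma adjusted p = 0.014 and 0.0112). *IFNL4* had 18 reads over all libraries. Per group, 5 came with shHOXB13+shp300, 2 each with shHOXB13+shp300/CBP and shHOXB13+shCBP, and 4 with shCtrl+shp300/CBP. With shHOXB13 in the CCS1477 series it had 3 under CCS1477 and 2 under DMSO. *IFNB1*, the type I interferon that RNA sensing induces in many cells, had 2 and 7 reads with shHOXB13+shp300, against 2 and 0 with shHOXB13, a difference that missed the threshold (limma adjusted p = 0.28, log2 1.89). It had 2 and 7 reads with shHOXB13+shp300/CBP as well and at most 4 in any other knockdown library. With shHOXB13+shp300 against shCtrl+shp300 its 9 reads against 0 passed (at least 3.64-fold, exact lower 95% limit 2.40, limma adjusted p = 0.045). Few reads decide each *IFNB1* value at this depth.

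*DDX58*, which encodes the sensor RIG-I (chromosome 9, 32455302 to 32526208, minus strand, 18 exons), was 12.7 and 10.2 FPKM with shHOXB13+shp300, against 1.85 and 1.83 FPKM with shHOXB13. The groups lay far apart, at 5.92-fold (log2 2.57, SE 0.20, limma adjusted p = 5.6e-05). It was 7.14 and 7.89 FPKM with shHOXB13+shp300/CBP (3.92-fold over shHOXB13, limma adjusted p = 6.7e-05) and 2.48 and 3.09 FPKM with shHOXB13+shCBP (limma adjusted p = 0.136). In shCtrl cells it was 4.47 and 6.33 FPKM with shp300/CBP, against 1.49 and 1.37 FPKM with shCtrl (3.54-fold, limma adjusted p = 0.00015). With shp300 alone it was 2.14 and 1.87 FPKM, which did not pass. The order of group means ran from shHOXB13+shp300 through shHOXB13+shp300/CBP, shCtrl+shp300/CBP, shHOXB13+shCBP, shCtrl+shp300, shHOXB13 and shCtrl+shCBP down to shCtrl, and only shHOXB13 and shCtrl+shCBP overlapped as neighbours. In GENCODE 44 an unnamed protein-coding gene of the same strand shares exon bases with *DDX58*. Whether reads in those bases were counted for *DDX58* was not examined.

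*IFIH1*, which encodes MDA5 (chromosome 2, 162267074 to 162318684, minus strand, 16 exons), was 9.53 and 7.98 FPKM with shHOXB13+shp300, against 4.26 and 4.49 FPKM with shHOXB13 (1.97-fold, log2 0.98, SE 0.16, limma adjusted p = 0.0047). The same hairpin went with lower *IFIH1* in shCtrl cells, 1.77 and 1.73 FPKM against 3.20 and 2.77 FPKM with shCtrl (log2 -0.73, SE 0.16, limma adjusted p = 0.031). That fall lost its call when any 1 of its 4 libraries was left out (adjusted p 0.091 to 0.196). With shp300/CBP *IFIH1* was 5.0 and 5.40 FPKM in shHOXB13 cells, a difference from shHOXB13 that did not pass (log2 0.24, limma adjusted p = 0.29). In shCtrl cells with shp300/CBP it was 4.05 and 4.64 FPKM, 1.44-fold over shCtrl and under the fold required.

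*DHX58* encodes LGP2, which binds double-stranded RNA but lacks the signalling domains of the other 2 receptors (chromosome 17, 42101404 to 42112714, minus strand, 14 exons). It was 0.367 and 0.281 FPKM with shHOXB13, against 1.14 and 1.15 FPKM with shCtrl, a fall by 1.56 on the log2 scale (SE 0.30, limma adjusted p = 0.0016). It was 2.20 and 2.28 FPKM with shHOXB13+shp300, above both of those groups and 5.55-fold over shHOXB13 (limma adjusted p = 0.00076). With shHOXB13+shp300/CBP it was 1.37 and 0.889 FPKM, 2.86-fold over shHOXB13 (limma adjusted p = 0.0037). In shCtrl cells no hairpin changed it past the threshold, with 0.743 to 1.26 FPKM over the 6 libraries. These are low values, 7 to 54 reads per library.

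*TLR3*, the endosomal sensor (chromosome 4, 186068911 to 186088073, plus strand, 5 exons), was 2.74 and 1.93 FPKM with shHOXB13+shp300, against 1.13 and 0.967 FPKM with shHOXB13 (2.09-fold, limma adjusted p = 0.048). It was 2.94 and 2.62 FPKM with shCtrl+shp300/CBP, against 1.48 and 1.30 FPKM with shCtrl (1.93-fold, limma adjusted p = 0.041). Both calls sat at the threshold and were lost when any 1 of their libraries was left out (adjusted p 0.0823 to 0.217 and 0.114 to 0.182) or with no filter on low values (0.067 and 0.058), and the first also with a pseudocount of 1 or 0.01 (0.056 and 0.051). *TLR3* was lower in shHOXB13 than in shCtrl cells under shCBP (0.514-fold, limma adjusted p = 0.022) and under shp300/CBP (0.572-fold, limma adjusted p = 0.041), 2 calls that median-of-ratios scaling removed (adjusted p = 0.088 and 0.316). The first was also lost without either shCtrl+shCBP library or shHOXB13+shCBP replicate 1 (0.052 to 0.152), and the second without either shCtrl+shp300/CBP library or shHOXB13+shp300/CBP replicate 2 (0.091 to 0.242). The highest group mean of *TLR3*, 2.78 ± 0.23 FPKM with shCtrl+shp300/CBP (SD, n = 2), overlapped that of 2.33 ± 0.57 FPKM with shHOXB13+shp300.

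*MAVS*, the mitochondrial adaptor (chromosome 20, 3846799 to 3876123, plus strand), and *TBK1*, the kinase that phosphorylates IRF3 and IRF7 (chromosome 12, 64452090 to 64502114, plus strand), were expressed throughout. *MAVS* ranged from 10.0 to 17.4 FPKM over the 16 knockdown libraries and passed in 0 of the 14 comparisons, although with median-of-ratios scaling it was higher with shHOXB13 and DMSO than with shCtrl and DMSO (log2 0.70, limma adjusted p = 9.35e-05). Its limma log2 differences in the knockdown series lay between -0.28 and 0.34. *TBK1* ranged from 7.47 to 16.7 FPKM and passed once, lower in shHOXB13+shCBP (7.47 and 10.1 FPKM) than in shCtrl+shCBP cells (13.0 and 13.7 FPKM; log2 -0.61, SE 0.20, limma adjusted p = 0.030), a call that the other scaling removed (log2 -0.24, adjusted p = 0.261), as did leaving out either shCtrl+shCBP library or shHOXB13+shCBP replicate 1 (0.075 to 0.225). In FPKM both genes lay above each of the 4 sensors in the shCtrl libraries.

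*IRF3* encodes the constitutive factor that TBK1 activates (chromosome 19, 49659569 to 49665875, minus strand, 8 exons). Its libraries were 41.9 and 29.5 FPKM with shHOXB13+shp300/CBP, against 19.8 and 19.7 FPKM with shHOXB13 (1.78-fold, limma adjusted p = 0.0032). Without shHOXB13+shp300/CBP replicate 1, which is the higher library, that difference was 0.58 on the log2 scale, under the fold required (adjusted p = 0.021). *IRF3* was 21.7 and 25.8 FPKM with shCtrl+shp300/CBP, against 15.9 and 15.1 FPKM with shCtrl (1.53-fold, limma adjusted p = 0.021), a call lost without either shCtrl library or shCtrl+shp300/CBP replicate 2 (0.077 to 0.174). With shHOXB13+shp300 it was 30.0 and 27.3 FPKM, 1.45-fold over shHOXB13 without passing (limma adjusted p = 0.068), and 1.88-fold over shCtrl+shp300 (limma adjusted p = 0.00085). Exons of *BCL2L12* on the other strand overlap *IRF3*, and the counts ignored strand. Whether reads in the shared bases were counted for *IRF3* or left out was not examined.

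*IRF7*, the factor that interferon itself raises and that widens the response (chromosome 11, 612553 to 615983, minus strand, 11 exons), had its highest libraries with shHOXB13+shp300/CBP, 25.1 and 19.5 FPKM. It was 17.9 and 16.2 FPKM with shHOXB13+shp300, and both groups lay above shHOXB13 at 7.94 and 7.52 FPKM (2.84-fold and 2.18-fold, limma adjusted p = 0.00049 and 0.0088). The shp300 call was lost without either shHOXB13 library or without shHOXB13+shp300 replicate 1 (adjusted p 0.0536 to 0.0713). In shCtrl cells *IRF7* was 11.2 and 12.9 FPKM with shp300/CBP and 12.5 and 8.96 FPKM with shCBP, against 5.45 and 7.63 FPKM with shCtrl. These were 1.85-fold and 1.63-fold (limma adjusted p = 0.012 and 0.047). The shp300/CBP call was lost without shCtrl replicate 1 or shCtrl+shp300/CBP replicate 2 (adjusted p = 0.119 and 0.105), and the shCBP call without shCtrl replicate 1 or shCtrl+shCBP replicate 1 (0.337 and 0.338).

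*EIF2AK2* encodes PKR, the kinase that shuts down translation when it binds double-stranded RNA (chromosome 2, 37099210 to 37157522, minus strand, 17 exons). It was 2.63 and 2.01 FPKM with shHOXB13, against 4.30 and 3.65 FPKM with shCtrl (log2 -0.76, SE 0.18, limma adjusted p = 0.0049). FPKM of all genes ran low in shHOXB13 cells, with a median log2 of -0.33, and under median-of-ratios scaling, which moved this comparison by 0.39, the *EIF2AK2* fall did not pass (log2 -0.37, adjusted p = 0.154). It was also lost without shCtrl replicate 1 or shHOXB13 replicate 2 (0.051 and 0.061). It was 4.12 and 4.25 FPKM with shHOXB13+shp300/CBP (1.79-fold over shHOXB13, limma adjusted p = 0.0049) and 3.72 and 4.04 FPKM with shHOXB13+shp300 (1.66-fold, limma adjusted p = 0.029). In shCtrl cells it was 6.84 and 8.21 FPKM with shp300/CBP (1.87-fold over shCtrl, limma adjusted p = 0.0046). The rise with shHOXB13+shp300 was lost when any 1 of its 4 libraries was left out (adjusted p 0.0505 to 0.205). The rise with shHOXB13+shp300/CBP was lost without shHOXB13 replicate 2 (adjusted p = 0.052), and that in shCtrl cells without shCtrl+shp300/CBP replicate 2 (adjusted p = 0.0588). Exons of *GPATCH11* on the other strand overlap this gene.

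**Figure D3:**
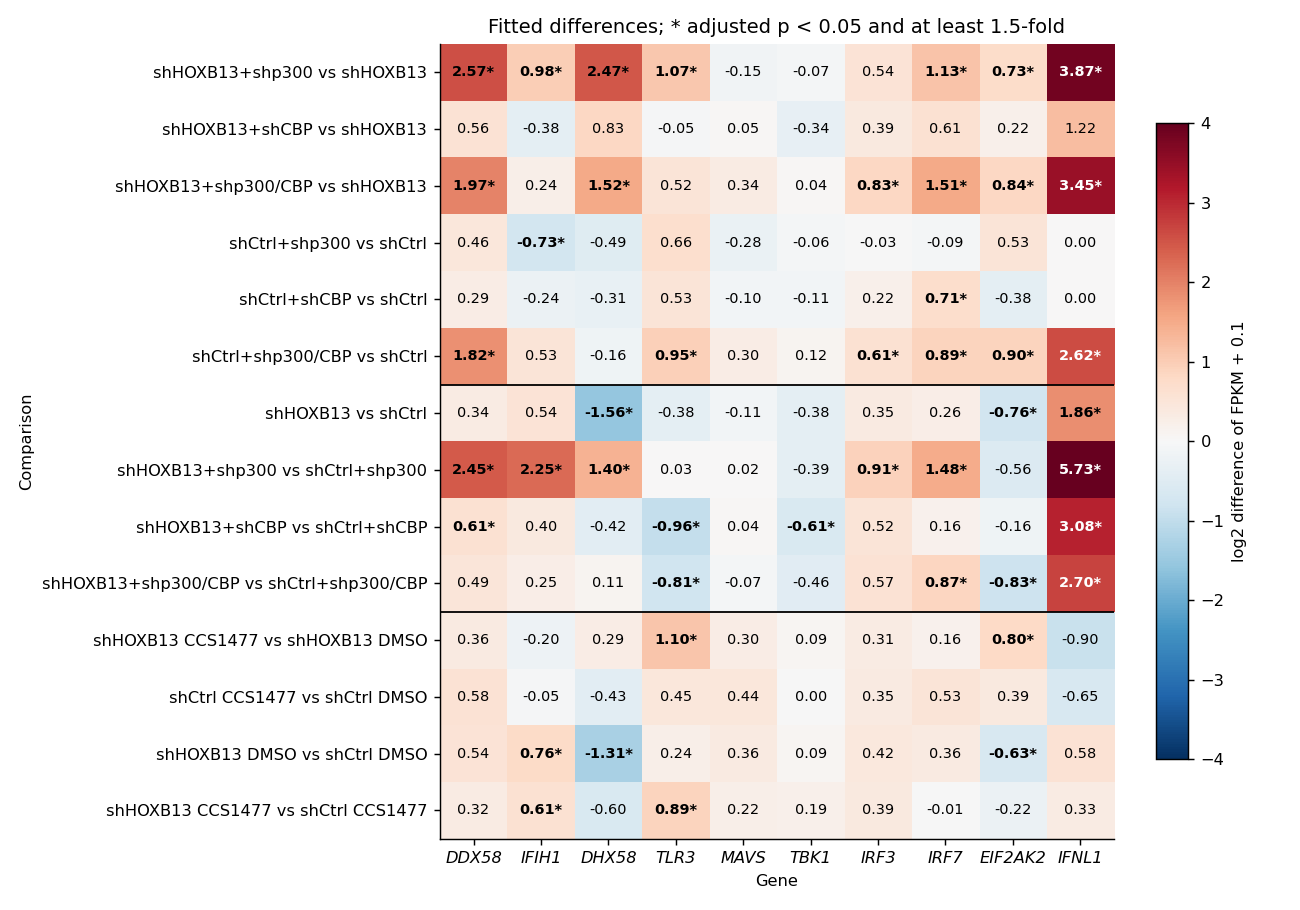
Fitted limma log2 differences of FPKM + 0.1 for the 10 genes (columns) in the 14 comparisons (rows), colour from blue (lower in the first-named group) to red (higher), with a star where the gene passed. Rows for shHOXB13+shp300 and for both double-hairpin groups hold most stars, with *IFNL1* at 3.87 in the first row, and *MAVS* has none. Values for *IFNL1* against groups at 0 reads depend on the pseudocount.

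Whether shp300 acted differently in shHOXB13 and in shCtrl cells was tested as an interaction, the difference between the 2 log2 differences. It passed for 4 of the 10 genes, all positive, where 0.498% of all genes passed as higher and 0.356% as lower. *IFNL1* had an interaction of 3.87 (SE 0.41, limma adjusted p = 0.0026), *DHX58* of 2.96 (SE 0.43, adjusted p = 0.0097), *DDX58* of 2.11 (SE 0.28, adjusted p = 0.0076) and *IFIH1* of 1.71 (SE 0.23, adjusted p = 0.0079). *DHX58* lost its call without shCtrl replicate 2 or shHOXB13 replicate 2 (adjusted p = 0.051 and 0.055). *IRF7* was 1.22 without passing (adjusted p = 0.085), and the other 5 lay between -0.01 and 0.57. So all 3 cytoplasmic receptor genes differed between the 2 backgrounds in their response to shp300, while for *TLR3*, *EIF2AK2*, *IRF3* and *IRF7* a difference was not shown. For *IFNL1* the shCtrl side was 0 reads against 0, so its interaction repeats its rise in shHOXB13 cells. A response in shCtrl cells below detection cannot be told from none, and the SE is partly set by values at 0. For shCBP the interaction passed in 0 of the 10 (limma, 3 at an unadjusted p under 0.05), where 0.243% and 0.362% of all genes passed as higher and lower. For shp300/CBP it passed in *DHX58* alone (1.67, SE 0.43, adjusted p = 0.033), where 2.53% and 5.59% passed, and leaving out any 1 of the 8 libraries but shCtrl+shp300/CBP replicate 2 or shHOXB13+shp300/CBP replicate 2 took that call away (adjusted p 0.074 to 0.142), as did using no filter (0.051).

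**Figure D4:**
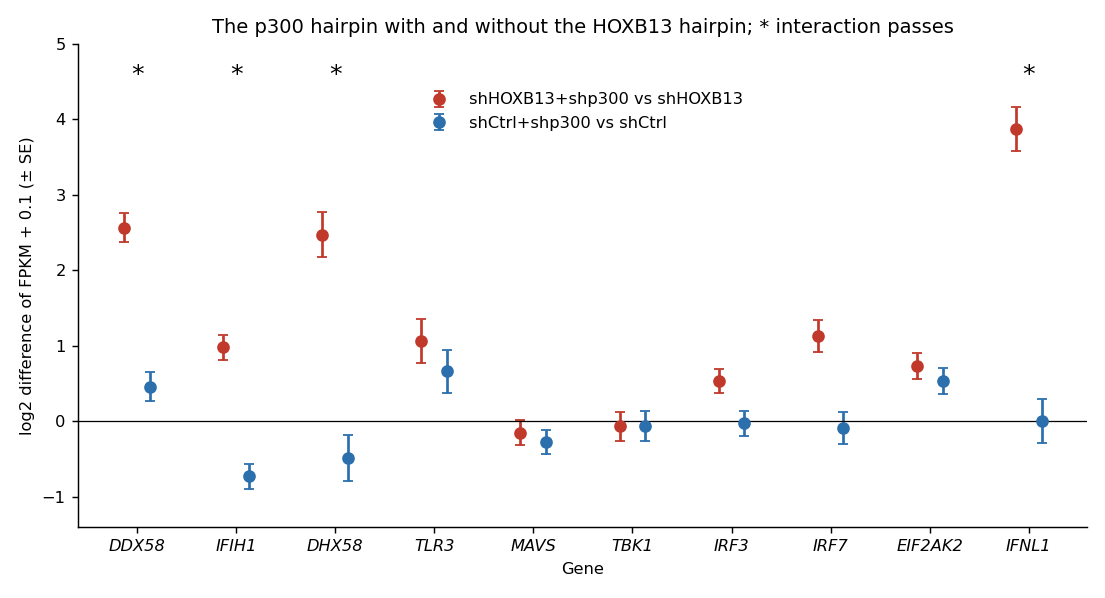
Limma log2 differences of FPKM + 0.1 with SE bars (y axis) for adding shp300 in shHOXB13 cells (red, left) and in shCtrl cells (blue, right), for each of the 10 genes (x axis), with a star where the interaction passed. Stars stand over *DDX58*, *IFIH1*, *DHX58* and *IFNL1*, whose red and blue points lie apart by 1.71 to 3.87.

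Set beside each other under the same second hairpin, shHOXB13+shp300 cells exceeded shCtrl+shp300 cells in 6 of the 10 genes, and 0 were lower, where 9.45% of all genes were higher and 27.0% lower. These were *IFNL1*, *DDX58* (5.46-fold, limma adjusted p = 4.2e-06), *IFIH1* (4.76-fold, adjusted p = 1.8e-06), *IRF7* (2.78-fold, adjusted p = 0.00021), *DHX58* (2.64-fold, adjusted p = 0.0030) and *IRF3*. Under shCBP, 2 were higher (*IFNL1* and *DDX58*) and 2 lower (*TLR3* and *TBK1*), where 6.83% and 25.5% of all genes were, but median-of-ratios scaling gave 4 higher, with *IRF3* (log2 0.90) and *IFIH1* (log2 0.77) added, and 0 lower. *DDX58* there was 1.53-fold (adjusted p = 0.028) and lost its call without either shCtrl+shCBP library or without shHOXB13+shCBP replicate 2 (adjusted p 0.0522 to 0.164). Under shp300/CBP, *IFNL1* and *IRF7* (1.83-fold, adjusted p = 0.0051) were higher and *TLR3* and *EIF2AK2* (0.564-fold, adjusted p = 0.0025) lower, where 7.09% and 30.8% of all genes were. Median-of-ratios scaling gave 5 higher and 0 lower there, with *IRF3* (log2 1.05), *DDX58* (log2 0.96) and *IFIH1* (log2 0.73) added to *IFNL1* and *IRF7* and both falls removed. For shHOXB13 against shCtrl alone the 10 genes split 1 higher and 2 lower, where 7.15% and 26.8% were, a share near that of all genes. Under median-of-ratios scaling the same comparison gave 5 higher (*IFNL1*, *IFIH1*, *IRF3*, *DDX58* and *IRF7*) and 1 lower (*DHX58*), so the count depends on how the libraries are scaled, whereas the fall of *DHX58* held under both.

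In the CCS1477 series the interferon gene was near absent. The *IFNL1* counts were 0, 0 and 1 reads with shHOXB13 and CCS1477, 1, 1 and 2 with shHOXB13 and DMSO, 0 in all 3 libraries with shCtrl and CCS1477, and 2, 0 and 0 with shCtrl and DMSO. Over the 3 libraries, 1 read with shHOXB13 and CCS1477 against 4 with shHOXB13 and DMSO gave a ratio per mapped read of 0.207 (exact 95% counting interval 0.0042 to 2.09), so no difference was detectable at this depth. The inhibitor raised 2 of the 10 genes in shHOXB13 cells and lowered 0, where 14.9% of all genes rose and 5.31% fell. There 6 of the 10 luminal markers fell (summed 2340 to 2460 FPKM, against 6090 to 7050 FPKM with DMSO), whose part in these results was not tested. *TLR3* was 2.17, 3.39 and 3.00 FPKM with CCS1477, against 1.33, 1.20 and 1.25 FPKM with DMSO, with the groups apart (2.14-fold, log2 1.10, SE 0.21, limma adjusted p = 0.0016). *EIF2AK2* was 8.30, 7.71 and 7.35 FPKM with CCS1477, against 4.62, 4.55 and 4.15 FPKM with DMSO (1.74-fold, log2 0.80, SE 0.10, limma adjusted p = 8.3e-05). *DDX58* was 3.09, 2.42 and 3.26 FPKM with CCS1477, against 2.18, 2.58 and 2.00 FPKM with DMSO, which overlap (limma adjusted p = 0.095). *IFIH1* was 4.14, 4.17 and 4.73 FPKM with CCS1477, against 4.79, 4.99 and 5.18 FPKM with DMSO (log2 -0.20, limma adjusted p = 0.18).

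In shCtrl cells CCS1477 changed 0 of the 10 past the threshold (limma, 5 at an unadjusted p under 0.05), where 6.58% of all genes rose and 5.56% fell. These 5, *DDX58*, *MAVS*, *IRF3*, *IRF7* and *EIF2AK2*, were all higher at a limma adjusted p of 0.0025 to 0.020. They missed only the fold required, at 1.27-fold to 1.49-fold. Without shCtrl DMSO replicate 1 or shCtrl CCS1477 replicate 1, the libraries that stood apart, 2 and 1 of the 10 passed, and 1 passed without any 1 of the other libraries except shCtrl DMSO replicate 3. *DDX58* was nearest to the fold required, at 2.00, 2.34 and 2.61 FPKM with CCS1477, against 1.53, 1.65 and 1.36 FPKM with DMSO, 1.49-fold (limma adjusted p = 0.020). The interaction between shHOXB13 and CCS1477 passed in 0 of the 10 (limma, 1 at an unadjusted p under 0.05), where 6.71% and 2.45% of all genes passed as higher and lower. The inhibitor and the hairpins were given in separate series with separate controls, so their sizes are placed side by side and were not tested against each other.

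**Figure D5:**
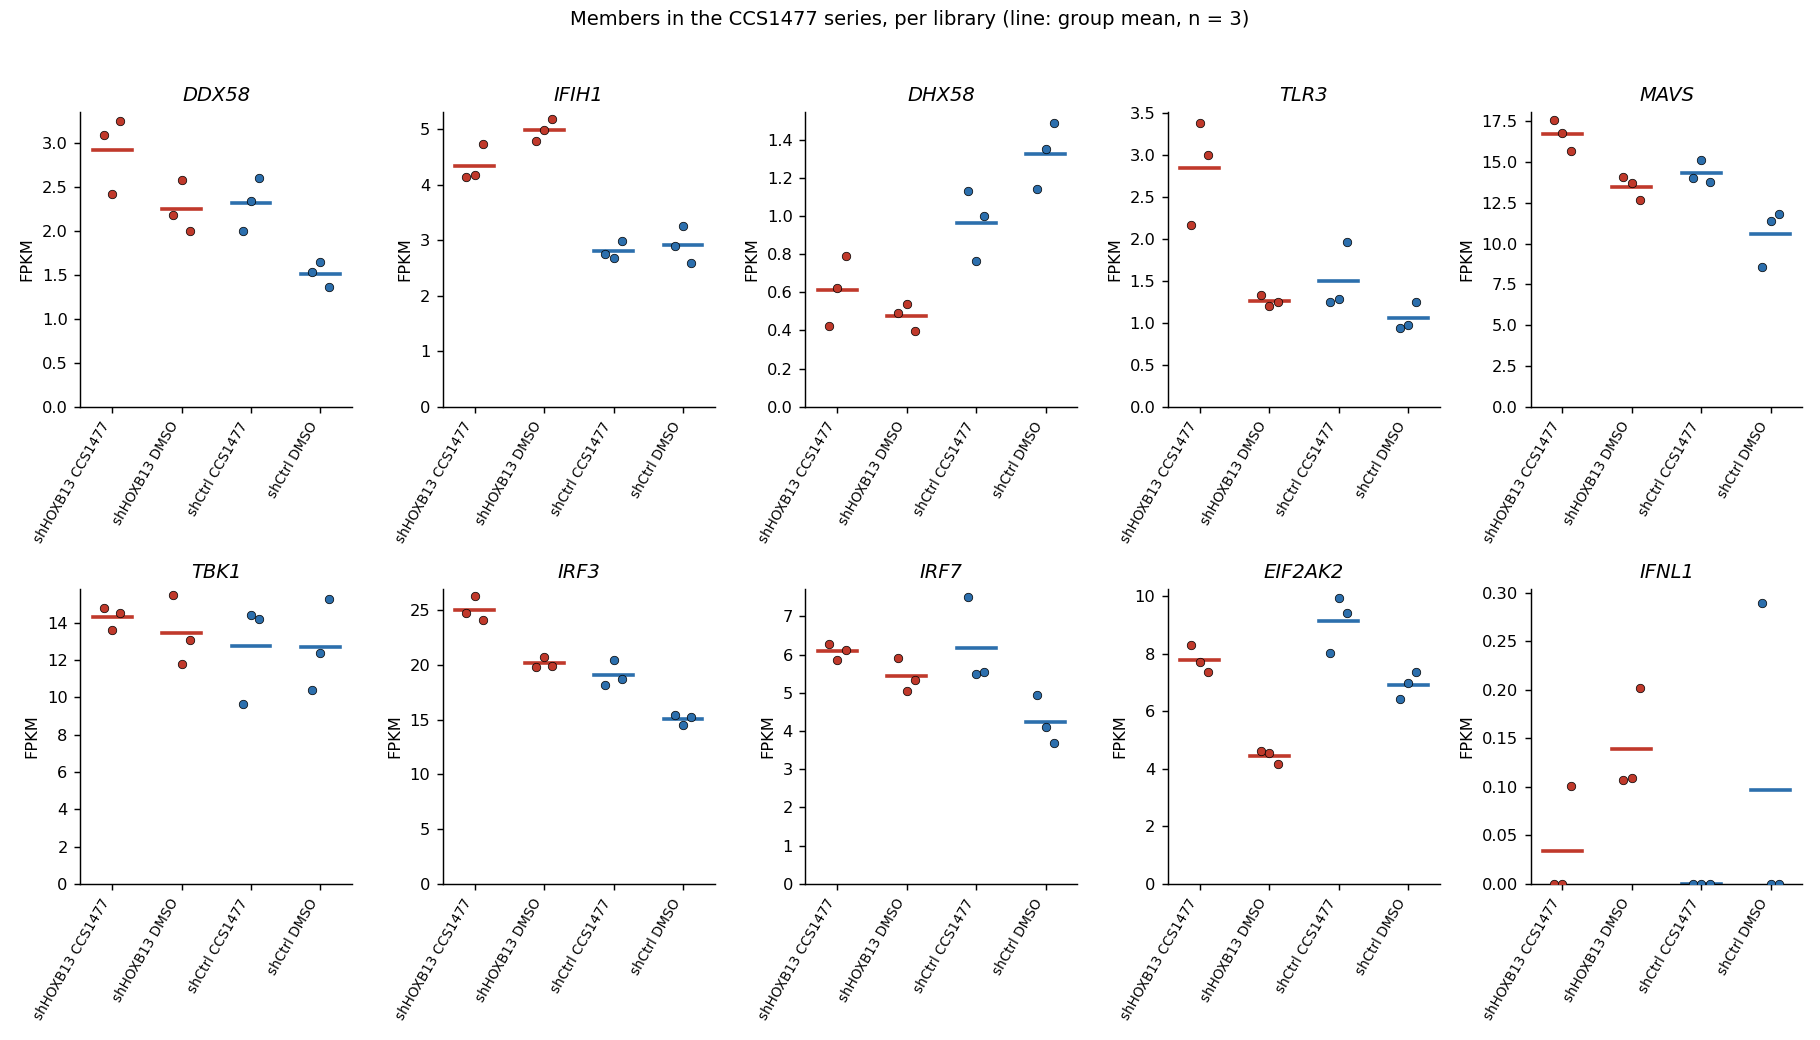
FPKM of the 10 genes (y axis, from 0, own scale per gene) in each library of the 4 groups of the CCS1477 series (x axis), points for libraries and lines for group means (n = 3), red for shHOXB13 and blue for shCtrl cells. *TLR3* reached 2.17 to 3.39 FPKM with shHOXB13 and CCS1477 and at most 1.96 FPKM in the other 9 libraries, and *IFNL1* stayed at or below 0.289 FPKM.

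The effect of shHOXB13 was measured again under DMSO, in other libraries. There 1 of the 10 was higher and 2 lower, where 8.58% and 30.6% of all genes were. Median-of-ratios scaling gave 5 higher (*IFIH1*, *DDX58*, *IRF3*, *MAVS* and *IRF7*) and 1 lower (*DHX58*). *IFIH1* was 4.79, 4.99 and 5.18 FPKM with shHOXB13 and DMSO, against 2.89, 3.25 and 2.6 FPKM with shCtrl and DMSO (1.69-fold, limma adjusted p = 8.9e-05). *DHX58* was 0.491, 0.537 and 0.396 FPKM with shHOXB13 and DMSO, against 1.14, 1.35 and 1.49 FPKM with shCtrl and DMSO (log2 -1.31, SE 0.23, limma adjusted p = 0.00043). Thus *DHX58* was lower with shHOXB13 in each of the 2 series, with no overlap of libraries in either. *EIF2AK2* was also lower (0.646-fold, limma adjusted p = 0.00018), which was lost under median-of-ratios scaling (log2 -0.29, adjusted p = 0.0127, under the fold required) and without shCtrl DMSO replicate 3 or shHOXB13 DMSO replicate 3 (log2 -0.58 in each). Under CCS1477, *IFIH1* (1.53-fold, limma adjusted p = 0.00082) and *TLR3* (1.85-fold, adjusted p = 0.0050) were higher with shHOXB13 than with shCtrl and 0 were lower, where 6.15% and 18.0% of all genes were, and median-of-ratios scaling added *IRF3* (log2 0.60). *IFIH1* fell under 1.5-fold there without shCtrl CCS1477 replicate 2 or shHOXB13 CCS1477 replicate 3.

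Beyond the 10, the enzymes and helicases that also bind double-stranded RNA moved in part. This list and those below were, like the 10 genes, chosen with earlier results of these data known. The list counts here are to be read against the shares of all genes that rose and fell, 3.15% and 3.09% with shHOXB13+shp300, 9.06% and 13.3% with shHOXB13+shp300/CBP and 0.385% and 1.08% with shHOXB13+shCBP, each against shHOXB13, and 1.00% and 2.09% with shp300 and 7.60% and 7.89% with shp300/CBP in shCtrl cells. Of 13 tested, 6 rose and 0 fell with shHOXB13+shp300 against shHOXB13 (median log2 0.09, against 0 for all genes), 4 rose and 2 fell with shHOXB13+shp300/CBP (median log2 -0.13, against 0), and 6 rose with shCtrl+shp300/CBP against shCtrl. *OASL*, which encodes a 2'-5'-oligoadenylate synthetase-like protein that enhances RIG-I signalling, was 93.2 and 79.4 FPKM with shHOXB13+shp300, against 5.37 and 3.98 FPKM with shHOXB13 (log2 4.19, limma adjusted p = 0.00015). *OAS1*, which makes the activator of RNase L, rose in the same comparison (log2 2.47, limma adjusted p = 0.00024). With the CBP hairpin in shHOXB13 cells 0 of the 13 passed (limma, 7 at an unadjusted p under 0.05).

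Of 21 adaptors, kinases and ubiquitin ligases that connect the sensors to TBK1, 0 passed in either direction when shp300 was added to shHOXB13 cells (limma, 5 at an unadjusted p under 0.05). With shp300/CBP there 0 rose and 1 fell. That 1 was *IRAK1*, a kinase of Toll-like receptor signalling (log2 -1.05, limma adjusted p = 0.00013), which also fell with shCtrl+shCBP (log2 -2.06, limma adjusted p = 1.1e-05) and with shCtrl+shp300/CBP (log2 -1.84, limma adjusted p = 9.3e-06). *TMEM173*, which encodes the DNA-sensing adaptor STING, was lower with shHOXB13 and DMSO than with shCtrl and DMSO (log2 -3.60, limma adjusted p = 2.5e-07). Of the 20 tested there, 3 were higher and 1 lower, where 8.58% and 30.6% of all genes were. *TMEM173* was higher with CCS1477 than with DMSO in shHOXB13 cells (log2 2.04, limma adjusted p = 7.7e-05). There 3 of the 20 rose and 1 fell, where 14.9% and 5.31% of all genes did. Of 13 inhibitors of RNA sensing, 0 passed with shHOXB13+shp300 against shHOXB13 (limma, 4 at an unadjusted p under 0.05), and 1 rose and 2 fell with shHOXB13+shp300/CBP. The one that rose was *SOCS1*, a feedback inhibitor of JAK kinases (log2 2.07, limma adjusted p = 0.0065). Among 10 transcription factors and coactivators of interferon induction, 1 rose with shHOXB13+shp300 against shHOXB13, *IRF9*, and 1 fell, the targeted *EP300*.

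On the receiving side, 3 of 11 receptor and JAK-STAT genes rose with shHOXB13+shp300 against shHOXB13 and 0 fell. *IRF9*, the DNA-binding part of the complex that interferon activates, was 22.9 and 23.6 FPKM with shHOXB13+shp300, against 6.81 and 4.38 FPKM with shHOXB13 (log2 2.07, SE 0.25, limma adjusted p = 0.00066). *JAK2*, also on this list, rose too (log2 1.00, limma adjusted p = 0.0088). *JAK1*, a kinase shared by type I and type III receptors, was 5.47 and 3.36 FPKM with shHOXB13+shp300/CBP, against 1.55 and 1.62 FPKM with shHOXB13 (log2 1.38, SE 0.24, limma adjusted p = 0.0015). It was 4.43 and 3.87 FPKM with shCtrl+shCBP, against 2.02 and 1.69 FPKM with shCtrl (limma adjusted p = 0.0116). In shCtrl+shCBP cells *IFNL1* had no read and only *IRF7* of the 10 genes passed. *JAK1* also rose with shCtrl+shp300/CBP against shCtrl (1.92-fold, limma adjusted p = 0.0161), where *IFNL1* had reads. Against shHOXB13, its rises with shHOXB13+shCBP (2.03-fold, limma adjusted p = 0.0534) and shHOXB13+shp300 (1.66-fold, adjusted p = 0.0838) missed the threshold. The relation of *JAK1* to interferon was not tested.

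Of 32 interferon-stimulated genes, 30 rose with shHOXB13+shp300 against shHOXB13 (median log2 2.39), 26 with shHOXB13+shp300/CBP against shHOXB13 (1.63) and 24 with shCtrl+shp300/CBP against shCtrl (1.33), and 0 fell in each. With shCtrl+shp300 against shCtrl 0 of the 32 passed (median log2 0.08, limma, 7 at an unadjusted p under 0.05), and with shHOXB13+shCBP against shHOXB13 0 passed as well (0.23, 9 at an unadjusted p under 0.05). With shHOXB13 against shCtrl alone, 15 of the 32 were higher and 3 lower, where 7.15% and 26.8% of all genes were. The median log2 of the 32 was 0.82 there, against -0.33 for all genes. Between the same cells, 28 were higher and 1 lower under shp300, where 9.45% and 27.0% of all genes were. Under shCBP 19 and 1 were (6.83% and 25.5% of all genes), and under shp300/CBP 14 and 2 (7.09% and 30.8%). With median-of-ratios scaling these counts were 30 and 0, 20 and 0, and 23 and 0, and 17 and 1 with no second hairpin. Under DMSO, 13 of 30 tested were higher and 7 lower (15 and 3 with median-of-ratios scaling), where 8.58% and 30.6% of all genes were. CCS1477 raised 9 of the 30 and lowered 3 in shHOXB13 cells, where 14.9% and 5.31% of all genes rose and fell. In shCtrl cells it raised 5 and lowered 0, where 6.58% and 5.56% did. *IFIT1*, one of the most inducible of the interferon-stimulated genes, was 7.15 and 13.9 FPKM with shCtrl+shp300/CBP, against 0.383 and 0.249 FPKM with shCtrl. Among 11 genes around PKR and eIF2alpha, 0 rose and 1 fell with shHOXB13+shp300 against shHOXB13, *EIF2S1*, which encodes the eIF2alpha subunit that PKR phosphorylates (log2 -0.59, limma adjusted p = 0.048). With shHOXB13+shp300/CBP, 1 rose and 4 fell, *EIF2S1* again among them (log2 -1.23, limma adjusted p = 0.00035).

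Likeness of pattern was described by Pearson's r over the 12 group means, each centred on its series, among 11690 genes, with no test. Groups of 1 series share controls and sequencing, so r is only a ranking. The 3 genes nearest to *DDX58* were *IRF9* (r = 0.965), *OAS1* (0.938) and *RSAD2* (0.937), all interferon-stimulated. Those nearest to *IFNL1* were *ISG15* (0.969), *OAS1* (0.957) and *PRSS22* (0.952), and those nearest to *IFIH1* were *IFIT3* (0.930), *IFI44* (0.911) and *APOL1* (0.901). *TLR3* was nearest to *IL4R* (0.968), *CYB561D1* (0.928) and *MINPP1* (0.918), *IRF3* to *UBA7* (0.966), *TCIRG1* (0.956) and *SAMD4A* (0.954), and *IRF7* to *TEP1* (0.967), *ALKBH6* (0.964) and *LLGL2* (0.949). *EIF2AK2* was nearest to *SLC2A4RG* (0.970), *MGC57346* (0.964) and *PACSIN1* (0.960).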

How the data were processed

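The 28 libraries were polyA RNA-seq of LNCaP cells. Per the submitters' notes the aligner was STAR, version 2.6.0, and the build GRCh38. The authors counted gene reads unstranded and deposited FPKM values, dividing by gene length and all mapped reads with a Perl script. They tested counts with DESeq2, which were not used here. FPKM was analysed on the scale of log2(FPKM + 0.1), with genes at 0.1 FPKM or more in at least 2 (knockdown) or 3 (CCS1477) libraries, in 1 limma 3.58.1 fit per series (R 4.3.3, mean-dependent prior, Benjamini-Hochberg adjustment over all tested genes). Reads per library were recovered by finding depth and gene length, and 22421 of 22423 genes gave whole reads within 0.05. Of 26475 genes, 32 had no value and were left out. Intervals are exact and conditional on the total reads.

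Positions come from GENCODE 44 on GRCh38. Genes named beside the 10 are the targeted genes, up to 2 per list and comparison with the smallest p among those passing, *JAK1*, the interferon genes, and the 3 nearest by r for genes passing in at least 3 of 14 comparisons. Those nearest to *DHX58* are not reported here. The 10 genes, lists and rules were chosen with earlier results of these data known. Alternatives were other pseudocounts, filters, scaling, fits of the compared groups alone, a replicate block and leaving out each library.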

Additional observations from a re-analysis of the deposited data

Results flagged for a closer look

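The limma interaction between shHOXB13 and a second hairpin passed for 4 of the 10 genes under shp300 and for 1 under shp300/CBP. With shp300 the interactions were 3.87 for *IFNL1*, 2.96 for *DHX58*, 2.11 for *DDX58* and 1.71 for *IFIH1* (limma adjusted p 0.0026 to 0.0097), each higher in shHOXB13 cells. With shp300/CBP it was 1.67 for *DHX58* (limma adjusted p = 0.033). The *IFNL1* value compares 77 reads with 5 in shHOXB13 cells and 0 with 0 in shCtrl cells, so its size depends on the pseudocount. For this gene a response in shCtrl cells below detection cannot be told from none.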

How the results depend on the processing

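Of 50 passing gene-level differences, 28 kept their call under every alternative other than fits of the compared groups alone, which removed 25, and no direction changed in 584 values. Median-of-ratios scaling removed 6, a pseudocount of 1 removed 10, no filter 5, a pseudocount of 0.01 and the replicate block 1 each, and 20 lost their call without at least 1 library. Counts of the 10 genes passing moved by over 1.5 times as follows. With median-of-ratios scaling, shHOXB13 against shCtrl gave 6, shHOXB13+shCBP against shHOXB13 1, and shHOXB13 DMSO against shCtrl DMSO 6. In fits of the compared groups alone the counts were 0 for shHOXB13+shp300 and for shHOXB13+shp300/CBP against shHOXB13, 0 for shCtrl+shp300 and for shCtrl+shCBP against shCtrl, 2 for shCtrl+shp300/CBP against shCtrl, 1 for shHOXB13+shCBP against shCtrl+shCBP, and 0 for the shp300/CBP interaction. A pseudocount of 1 gave 0 for shCtrl+shp300 against shCtrl, 2 for shHOXB13+shCBP against shCtrl+shCBP, 2 for the shp300/CBP interaction and 1 for shHOXB13 CCS1477 against shCtrl CCS1477, and a pseudocount of 0.01 gave 1 for shCtrl CCS1477 against shCtrl DMSO. No filter gave 0 for shCtrl+shCBP against shCtrl and 0 for the shp300/CBP interaction. Leaving out a library gave 4 to 5 for shHOXB13+shp300 against shHOXB13, 0 to 0 for shCtrl+shp300 and 0 to 1 for shCtrl+shCBP against shCtrl, 2 to 5 for shCtrl+shp300/CBP against shCtrl, 1 to 3 for shHOXB13+shCBP against shCtrl+shCBP, 0 to 1 for the shp300/CBP interaction and 0 to 2 for shCtrl CCS1477 against shCtrl DMSO. The replicate block gave 0 for shCtrl+shCBP against shCtrl and removed no other call. Deviations of same-numbered libraries of different groups correlated at r = -0.12 to 0.16 in the knockdown series and -0.11 to 0.50 in the CCS1477 series (6 of 16 and 7 of 12 libraries nearest to their own number). As not every pair was above 0.1, the numbers were not taken to pair samples. Scaling also moved the median over all genes by 0.34 to 0.47 in the shHOXB13 against shCtrl comparisons other than that under CCS1477 (0.21), by 0.10 and 0.13 for shCBP in shHOXB13 and shCtrl cells, by -0.21 for CCS1477 in shHOXB13 cells and by -0.13 for the CCS1477 interaction, and the share of calls over all genes that were higher was then 52.5%, against 21% as reported, for shHOXB13 against shCtrl, 53.8% against 25.9% under shp300, 52.5% against 21.1% under shCBP, 53.2% against 18.7% under shp300/CBP, 48.4% against 21.9% under DMSO and 49.5% against 25.5% under CCS1477. It was 43.3% against 26.3% and 55.5% against 33.7% for shCBP in shHOXB13 and shCtrl cells, 49% against 73.7% and 43.1% against 54.2% for CCS1477 in them, 51% against 73.3% for the CCS1477 interaction and 28.1% against 40.2% for the shCBP interaction. Except where a setting uses fewer libraries, the cause was not tested. Depth limits *IFNL1*, *IFNL2*, *IFNL3* and *IFNB1*, at 42 reads or fewer per library.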
